A study of Mus musculus with 4 samples.

Results

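The genes of SNARE vesicle fusion were examined for binding of MIZ-1, a transcription factor, in splenic cells that carry B220, a surface marker of the B lineage. The set held 34 genes chosen by name and role: 9 v-SNAREs, 13 syntaxins, 4 SNAP proteins, 6 other Q-SNAREs and 2 disassembly factors. Of these, 33 lay on the chromosomes of the peak lists, among 21938 protein-coding genes in all. The remaining gene, Vamp7, is placed by the annotation on a scaffold with 0 peaks in either list and was not analysed here. All peaks from 2000 bp before to 1000 bp after an annotated start of a SNARE gene were taken as promoter peaks, and other peaks inside a gene as gene-body peaks. This gave 36 of 34209 peaks in the MIZ-1WT list and 63 of 78357 peaks in the MIZ-1DPOZ list.

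Binding was measured by ChIP-seq with the Miz-1 antibody H-190. The MIZ-1WT cells came from mice with an intact Miz-1 gene. The MIZ-1DPOZ cells came from a cross of Mb1-Cre with Miz-1 floxPOZ mice. There, Cre under the Mb1 (Cd79a) promoter removes the POZ domain of MIZ-1 in B lineage cells and leaves the zinc fingers that bind DNA. By the study's methods the mice had a C57BL/6 background. There was 1 ChIP library and 1 input library for each genotype, 4 libraries in all, so no difference between the genotypes could be tested and every ratio below compares 2 libraries. The peak lists hold no expression values, so the cell type and the deletion could not be checked from them, and the part of MIZ-1 that the antibody recognises is not given in the sources used here.

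SNARE proteins drive the fusion of vesicles with their target membranes. A v-SNARE (or R-SNARE) on the vesicle zips into a bundle of helices with Q-SNAREs on the target, which are syntaxins, SNAP proteins that give a pair of helices each, and single-helix Q-SNAREs such as VTI1 and GOSR proteins. After fusion, the ATPase NSF and its adaptor alpha-SNAP, encoded by Nsf and Napa, take the bundle apart. In B cells this machinery moves the antigen receptor between the Golgi, endosomes and the surface, and serves secretion and autophagy. MIZ-1 (Zbtb17) is a zinc finger protein with an N-terminal POZ domain through which it forms multimers.

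The upstream sequences of 5 genes are shown here. Vamp4 had the strongest promoter peak of the SNARE genes in each library, and Nsf their next strongest MIZ-1WT peak. Vamp5 was the SNARE gene whose promoter sequence held the first 6 letters of the published MIZ-1 consensus. Stx17 had a peak among the strongest of those listed for MIZ-1DPOZ only, and Sec22b had a peak listed for MIZ-1WT only. Sequences are from RefSeq on GRCm38.p6, 5′ to 3′ on the strand of the gene, and end at the last base before the annotated gene. They are chr1:162570265-162570514 (plus strand) for Vamp4, chr6:72380469-72380718 (minus) for Vamp5, chr11:103954057-103954306 (minus) for Nsf, chr4:48124669-48124914 (plus) for Stx17 and chr3:97900977-97901189 (plus) for Sec22b. Capitals mark CACGTG (an E-box), GGGCGG (a GC box), ATCGGT (the start of the MIZ-1 consensus) and GCTCGAT, on either strand. At Stx17 and Sec22b the sequence ends before the promoter peak starts, so the GC boxes marked there lie outside the peaks.
Vamp4: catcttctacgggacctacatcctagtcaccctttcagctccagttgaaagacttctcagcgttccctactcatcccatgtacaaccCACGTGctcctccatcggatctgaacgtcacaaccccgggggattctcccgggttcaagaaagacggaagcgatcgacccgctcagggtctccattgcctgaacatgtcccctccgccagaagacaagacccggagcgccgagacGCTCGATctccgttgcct
Vamp5: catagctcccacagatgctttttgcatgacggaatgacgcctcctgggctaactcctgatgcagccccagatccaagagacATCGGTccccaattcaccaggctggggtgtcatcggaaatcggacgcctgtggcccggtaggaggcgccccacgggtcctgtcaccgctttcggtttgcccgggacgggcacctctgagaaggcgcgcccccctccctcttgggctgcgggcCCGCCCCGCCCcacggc
Nsf: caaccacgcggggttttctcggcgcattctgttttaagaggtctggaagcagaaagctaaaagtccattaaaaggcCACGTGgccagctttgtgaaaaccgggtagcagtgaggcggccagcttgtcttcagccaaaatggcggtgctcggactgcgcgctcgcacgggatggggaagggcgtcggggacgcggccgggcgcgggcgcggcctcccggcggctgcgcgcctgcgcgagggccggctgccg
Stx17: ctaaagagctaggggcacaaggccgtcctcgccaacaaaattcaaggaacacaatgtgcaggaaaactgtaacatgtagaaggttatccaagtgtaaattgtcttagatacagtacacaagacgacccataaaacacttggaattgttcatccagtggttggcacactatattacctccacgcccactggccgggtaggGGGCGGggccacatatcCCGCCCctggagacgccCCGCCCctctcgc
Sec22b: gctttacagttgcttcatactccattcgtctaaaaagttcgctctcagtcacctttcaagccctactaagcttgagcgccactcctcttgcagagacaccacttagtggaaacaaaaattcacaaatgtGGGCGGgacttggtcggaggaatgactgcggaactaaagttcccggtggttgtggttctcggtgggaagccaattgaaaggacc

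An E-box stood at positions -163 to -158 before Vamp4 and at positions -174 to -169 before Nsf. Both lay outside the peaks: the E-box was 37 bases from the edge of the MIZ-1WT peak at Vamp4 and 24 bases from that at Nsf. Among 32851 promoter sequences of 300 bases, 7.15% held CACGTG, against 11.1% of the 36 such sequences of 30 SNARE genes, which belonged to Vamp4, Nsf, Stx6 and Napa. No E-box was found within 100 bp of the strongest promoter summit of any SNARE gene, in 18 MIZ-1WT and 22 MIZ-1DPOZ summits. Over all protein-coding genes 4.77% and 3.77% of such summits held one, so counts of 0 are near the background. ATCGGT was found at positions -169 to -164 before Vamp5, outside both promoter peaks of that gene. It was in 2.78% of the SNARE sequences and 2.33% of all promoter sequences. A further sequence counted, ATCGAT, was in 0 of the SNARE sequences, against 0.925% of all promoter sequences. Within 100 bp of the summits ATCGGT was found at Stx3 alone, in both libraries, against 1.56% and 1.66% of the summits of all protein-coding genes. GC boxes were found in 66.7% of the SNARE sequences and in 35.7% of all promoter sequences. These groups differ in composition: 31 of 33 SNARE genes have CpG-rich starts, as defined below, against 10922 of 21938 protein-coding genes. No GC box share is given for CpG-rich promoters alone. Within 100 bp of the summits, 9 of 18 MIZ-1WT and 13 of 22 MIZ-1DPOZ summits held a GC box, against 64.5% and 56.2% of the strongest promoter summits of all protein-coding genes.

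The sequence GCTCGAT was picked after the Vamp4 promoter had been read, so its counts are a description. It occurred 3 times inside the Vamp4 peak, with 63 bp from each copy to the next. The copies were centred -95, -32 and 31 bp from the MIZ-1WT summit. Of the 6220 distinct strongest promoter summits of protein-coding genes in the MIZ-1WT list, 1 had more than a single copy within 100 bp, and this was Vamp4. The same held for 1 of 9896 summits in the MIZ-1DPOZ list, again Vamp4. In the promoter sequences of 300 bases, GCTCGAT was found in 0.721%. Of these 32851 sequences, 1 held more than a single copy, and this was Spesp1. At least 1 copy was found within 100 bp of 0.868% of the MIZ-1WT and 0.859% of the MIZ-1DPOZ summits, near the promoter share.

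Vamp4, a v-SNARE of the trans-Golgi network and endosomes, carried by far the strongest MIZ-1 peak of the set. Vamp4 was already a reported MIZ-1 target when the set was chosen. The gene (ENSMUSG00000026696) lies on the plus strand at chr1:162570515-162599084. The peak heights are given as fragments over the summit, a whole number solved from the deposited scores, and as the deposited fold enrichment over the local background. In the MIZ-1WT library the peak at chr1:162570394-162570807 held 146 fragments, with a fold of 32.2 and a −log10 q of 171. In the MIZ-1DPOZ library the peak at chr1:162570428-162571010 held 89 fragments, with a fold of 25.7 and a −log10 q of 98.0. Both summits lay in the 5′ UTR, 5 bp and 28 bp after the nearest annotated start and 80 bp and 103 bp after the first base of the gene. The summits were 23 bp apart, and 91.8% of the MIZ-1WT peak was covered by the MIZ-1DPOZ peak.

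By −log10 q, the Vamp4 peak ranked 1st among the 6773 protein-coding genes bound at the promoter in the MIZ-1WT list and 6th among the 10683 in the MIZ-1DPOZ list. By fragments it ranked 10th and 19th. Across whole lists, promoters or not, it was number 33 of 34209 and number 78 of 78357 by −log10 q. Its summit sequence occurred in 1 copy in the genome and was 8.46% repeat-masked in the MIZ-1WT window of 201 bp.

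The MIZ-1DPOZ library was 1.34 times as deep as the MIZ-1WT library by the ratio recovered from the background of the lists. After scaling for this depth, the MIZ-1DPOZ to MIZ-1WT ratio of fragments at Vamp4 was 0.455, with a 95% exact binomial interval of 0.345 to 0.596. The interval covers counting error in these libraries, with the depth ratio held fixed, and no variation between mice. If 1 fragment was kept per position and strand, which the sources used here do not state, a pileup could not pass 296 in the MIZ-1WT and 346 in the MIZ-1DPOZ library, and these are the largest pileups in the lists. The Vamp4 pileup stood at 49.3% of this value in the MIZ-1WT and 25.7% in the MIZ-1DPOZ library, and a ratio corrected for such a ceiling was 0.381.

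A lower MIZ-1DPOZ value was common among strongly bound protein-coding promoters. Of 58 genes with overlapping promoter peaks and a depth-scaled mean of at least 40 fragments, 51 had a ratio under 1, with a median of 0.619 and quartiles of 0.446 and 0.870. These 58 genes rest on 49 distinct MIZ-1WT peaks, since neighbouring genes can share one. From a mean of 20 fragments, 95 of 141 genes had a ratio under 1, with a median of 0.681 and quartiles of 0.428 and 1.38. In 16 of the 58 genes the ratio was at or under that of Vamp4, which is counted among them. Over all 4250 genes with overlapping promoter peaks, the median ratio was 1.08 (quartiles 0.870 and 1.33). No test sets Vamp4 apart from the other strongly bound promoters.

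**Figure D1:**
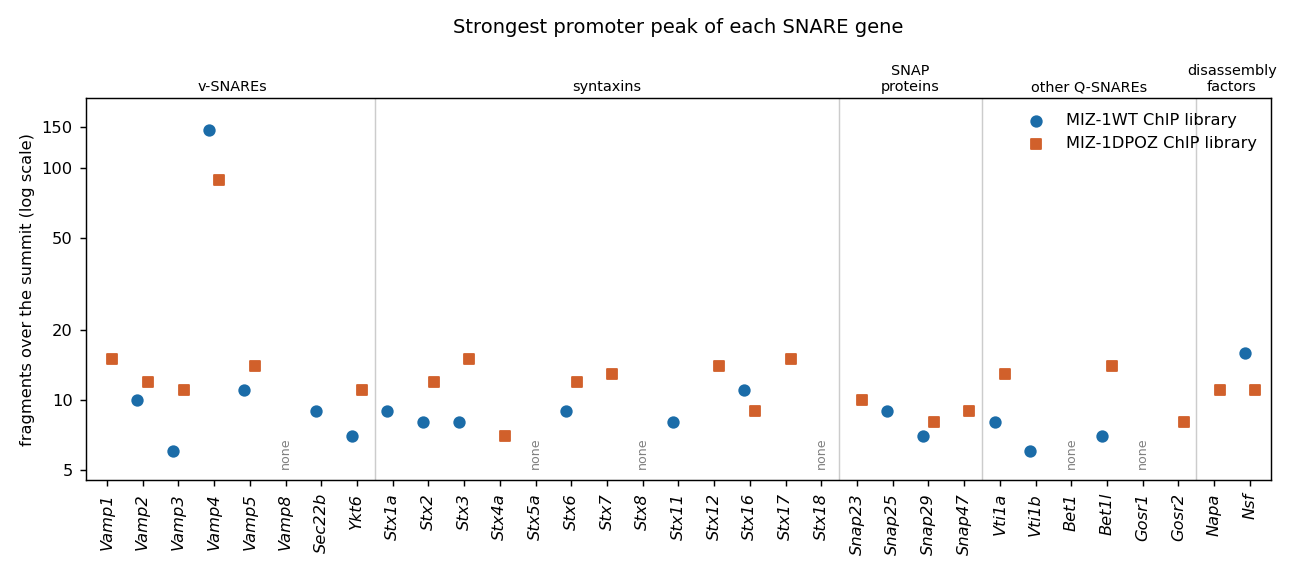
Fragments over the summit of the strongest promoter peak of each SNARE gene (log axis) in the MIZ-1WT (circles) and MIZ-1DPOZ (squares) ChIP libraries, 1 library each and not scaled for depth. Vamp4 stands at 146 and 89 fragments, all other genes at 6 to 16, and genes marked none had no promoter peak in either list.

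Promoter peaks were listed for 18 of the 33 SNARE genes in the MIZ-1WT library (54.5%), against 30.9% of all protein-coding genes. The MIZ-1DPOZ library had them for 22 of 33 (66.7%), against 48.7%. This order depended on how the lists were cut. With the MIZ-1DPOZ list shortened to the length of the MIZ-1WT list, 11 genes had a MIZ-1DPOZ promoter peak, fewer than the 18 for MIZ-1WT. Such shortening removes peaks from the MIZ-1DPOZ list alone. The other alternatives run left more genes for MIZ-1DPOZ than for MIZ-1WT. With a fold limit of 5 on both lists, these were 14 genes for MIZ-1DPOZ and 9 for MIZ-1WT. Shares of all protein-coding genes are not given for the shortened list or the fold limit. The counts at these cuts therefore cannot be read as particular to SNARE genes. Most SNARE genes have CpG-rich starts, defined as 300 bp around a start with at least 50% GC and a CpG ratio, observed to expected, of at least 0.6: this held for 31 of the 33, all but Stx7 and Vamp8. Among protein-coding genes with such starts, 50.5% had a MIZ-1WT and 71.6% a MIZ-1DPOZ promoter peak. The SNARE genes with such starts gave 18 of 31 (58.1%) and 21 of 31 (67.7%), which is near that background in both libraries.

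Except for Vamp4, the promoter peaks were low. In the MIZ-1WT library the other 17 genes had 6 to 16 fragments and folds of 3.76 to 8.93. The median of the 18 was 8.5 fragments, against 9 over all protein-coding genes with a promoter peak. The other 21 genes of the MIZ-1DPOZ library had 7 to 15 fragments and folds of 3.41 to 6.81, with a median of 12 over the 22 against 13 over all genes. The lowest pileups in the lists were 5 and 6 fragments, so most SNARE promoters stood only a few fragments above the lowest peaks listed. At a −log10 q of at least 5, 4 SNARE genes (12.1%) kept a MIZ-1WT promoter peak, against 9.78% of protein-coding genes, and these were Vamp4, Nsf, Vamp5 and Stx16. At the same limit, 14 genes (42.4%) kept a MIZ-1DPOZ peak, against 33.3%.

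Both lists had a promoter peak for 13 genes (39.4%), against 26.7% of protein-coding genes. No such share is given for protein-coding genes with CpG-rich starts, which most SNARE genes have. The strongest peaks of the 13 genes overlapped in 12, with summits 6 to 153 bp apart and a median of 55.5 bp. The depth-scaled ratio had a median of 0.994 over the 13, with 7 under and 6 over 1. The interval included 1 in 12 of them, at ratios from 0.513 (Nsf) to 1.49 (Bet1l), and the exception was Vamp4. These intervals were wide: that of Nsf ran from 0.215 to 1.18 and that of Bet1l from 0.563 to 4.37, so at this depth they did not exclude a MIZ-1DPOZ value several times lower at Nsf or several times higher at Bet1l.

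**Figure D2:**
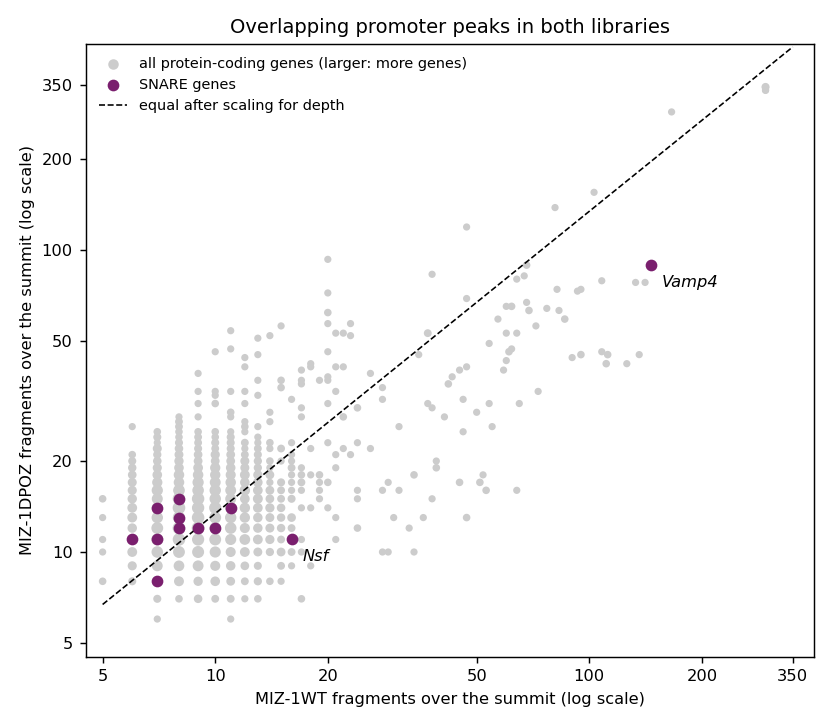
Fragments over the summit in the MIZ-1WT (x) and MIZ-1DPOZ (y) libraries, both on log axes, for the 4250 protein-coding genes with overlapping promoter peaks (grey, larger for more genes) and the 12 SNARE genes among them (purple). The dashed line marks equal values after scaling for a depth ratio of 1.34. Vamp4 (146 and 89) lies below the line with other strongly bound genes, and Nsf (16 and 11) is the other labelled gene.

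The v-SNAREs sit mainly on vesicles. Of the 8 analysed, 6 had a promoter peak in each list (75.0%, 95% Wilson interval 40.9% to 92.9%). Vamp2, Vamp3, Vamp4, Vamp5 and Ykt6 were in both lists. Vamp2, the synaptobrevin of regulated secretion, had 10 fragments in the MIZ-1WT and 12 in the MIZ-1DPOZ library, a ratio of 0.895 (0.354 to 2.31). Vamp5, a relative best known from muscle, had 11 and 14 fragments at chr6:72380362-72380573 and chr6:72380229-72380550, a ratio of 0.949 (0.400 to 2.31). Both intervals included 1 and were wide on either side of it. Vamp3 (cellubrevin, of recycling endosomes) had 6 and 11 fragments, and Ykt6 (a lipid-anchored SNARE of the Golgi and of autophagosomes) 7 and 11.

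Sec22b, the v-SNARE of transport between the endoplasmic reticulum and the Golgi, was listed for MIZ-1WT only, with 9 fragments and a fold of 5.38 at chr3:97901370-97901517, 165 bp after its nearest start in a coding exon. Vamp1, a synaptobrevin like Vamp2, was listed for MIZ-1DPOZ only, with 15 fragments and a fold of 6.57 at chr6:125215777-125215958. Vamp8 (endobrevin, of late endosomes) had no peak in either list, in the promoter or in the gene.

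Syntaxins are the Q-SNAREs that mark target membranes. A promoter peak was listed for 6 of 13 in the MIZ-1WT library (46.2%, interval 23.2% to 70.9%) and for 8 of 13 in the MIZ-1DPOZ library (61.5%, 35.5% to 82.3%), or 5 with lists of equal length. Stx2, Stx3, Stx6 and Stx16 were in both lists. Stx6, a syntaxin of the trans-Golgi network, had 9 and 12 fragments with summits 26 bp apart, a ratio of 0.994 (0.385 to 2.67). Stx2 and Stx3, of the plasma membrane, had 8 fragments each in the MIZ-1WT library, and 12 and 15 in the MIZ-1DPOZ library.

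Stx16, a partner of Stx6 at the trans-Golgi network, was the gene with promoter peaks in both lists that did not overlap. The MIZ-1WT peak (11 fragments, fold 6.45) lay at chr2:174076240-174076404, across the first base of the gene at 174076308, and the MIZ-1DPOZ peak (9 fragments, fold 4.26) lay 617 bp further upstream at chr2:174075450-174075622. Its ratio of 0.610 therefore compares different sites.

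Stx1a, the syntaxin of synaptic release, and Stx11, known from the granules of cytotoxic lymphocytes, had promoter peaks in the MIZ-1WT list only. Stx1a had 2 of them, with 7 fragments at the start and 9 fragments 540 bp after it. Stx11 had 8 fragments 23 bp before its nearest start, and its peak reached the start. The reverse held for Stx4a, Stx7, Stx12 and Stx17, listed for MIZ-1DPOZ only. Stx17, the syntaxin of autophagosomes, had 15 fragments and a fold of 6.81 at chr4:48124921-48125311. Stx12 and Stx7, both endosomal, had 14 and 13 fragments, and Stx4a of the plasma membrane had 7. The Golgi syntaxin Stx5a, the late endosomal Stx8 and the endoplasmic reticulum syntaxin Stx18 had no promoter peak.

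SNAP proteins give a pair of SNARE helices to a complex. A promoter peak was listed for 2 of 4 in the MIZ-1WT library (50.0%, 15.0% to 85.0%) and 3 of 4 in the MIZ-1DPOZ library (75.0%, 30.1% to 95.4%). The MIZ-1DPOZ count fell to 0 with lists of equal length, with the −log10 q limit of 5 and with a fold limit of 5. At these cuts the MIZ-1WT count was 2, 0 and 1. Such cuts remove peaks by construction. Shares of all protein-coding genes are not given for equal length or the fold limit, so the fall cannot be read as particular to SNAP genes. Snap29, which serves endosomes and autophagosomes, was in both lists, with 7 and 8 fragments and a ratio of 0.852 (0.270 to 2.76). Its summits lay nearer to the start of the neighbouring gene Pi4ka than to its own, the sole case of this kind among the SNARE genes with a promoter peak. Snap25, the neuronal SNAP, was listed for MIZ-1WT only, with 9 fragments 767 bp after its start, in an intron. Snap23, its widely expressed relative, and Snap47 were listed for MIZ-1DPOZ only, with 10 and 9 fragments.

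Among the other Q-SNAREs, Vti1a (trans-Golgi network) and Bet1l (Golgi) were in both lists. Vti1a had 8 and 13 fragments, a ratio of 1.21 (0.466 to 3.37). Bet1l had 7 and 14, the highest ratio among the 13 genes in both lists. Vti1b, of late endosomes, was listed for MIZ-1WT only with 6 fragments, and Gosr2, of the Golgi, for MIZ-1DPOZ only with 8. Bet1 and Gosr1, also of the early secretory pathway, had no promoter peak.

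The disassembly factor Nsf had the second strongest MIZ-1WT promoter peak of the set, with 16 fragments, a fold of 8.93 and a −log10 q of 11.4 at chr11:103953897-103954201. Its summit lay 43 bp after the start, in the 5′ UTR. Its MIZ-1DPOZ peak had 11 fragments and a fold of 5.11. Nsf ranked 165th of 6773 genes in the MIZ-1WT list and 6369th of 10683 in the MIZ-1DPOZ list by −log10 q, yet its interval, given above, included a ratio of 1. Napa was listed for MIZ-1DPOZ only, with 11 fragments 437 bp after its start.

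**Figure D3:**
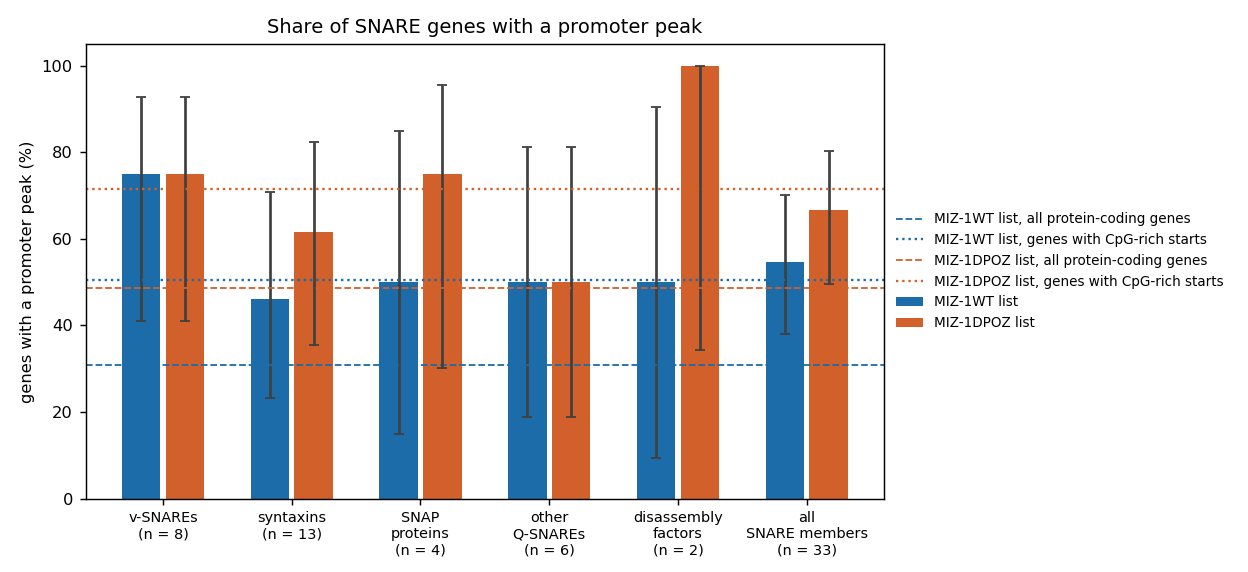
Share of SNARE genes with a promoter peak by role, as bars with 95% Wilson intervals, in the MIZ-1WT and MIZ-1DPOZ lists. Dashed lines give the share of all protein-coding genes (30.9% and 48.7%) and dotted lines that of genes with CpG-rich starts (50.5% and 71.6%). The intervals of the v-SNAREs (75.0% in both lists), syntaxins (46.2% and 61.5%) and SNAP proteins (50.0% and 75.0%) overlap in both lists.

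Set side by side, the intervals of v-SNAREs, syntaxins and SNAP proteins overlapped in both libraries. A difference between these groups was not tested, and with so few genes the overlap of wide intervals cannot show whether they differ. Genes are not replicates. The Wilson intervals treat the genes of a group as if drawn at random, and they hold no error of the fragment counts. Apart from Vamp4, the promoter peaks of all groups fell within the same 6 to 16 fragments in both libraries.

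By known complexes, grouped after the values had been seen, the 4 genes of the endosome to trans-Golgi complex (Vamp4, Stx6, Stx16 and Vti1a) all had promoter peaks in both lists, against 39.4% of the SNARE genes and 26.7% of protein-coding genes. Of these, Vamp4 alone kept both peaks with the −log10 q limit of 5, Stx16 was not in both lists at equal length, and its peaks did not overlap. Of the synaptic complex, Vamp2 was in both lists while Stx1a and Snap25 were listed for MIZ-1WT only. Of the autophagosome complex, Snap29 was in both lists, Stx17 was listed for MIZ-1DPOZ only and Vamp8 had no peak. These groupings are a description and have no test.

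The 5 genes listed for MIZ-1WT only (15.2% of the SNARE genes, against 4.22% of protein-coding genes) were Sec22b, Stx1a, Stx11, Snap25 and Vti1b. The 9 genes listed for MIZ-1DPOZ only (27.3%, against 22.0%) were Vamp1, Stx4a, Stx7, Stx12, Stx17, Snap23, Snap47, Gosr2 and Napa. Most SNARE genes have CpG-rich starts, and single-list shares are not given for protein-coding genes with such starts. The higher SNARE shares therefore cannot be read as particular to SNARE genes. The fragments of the other library at these promoters are not in the lists. With the other library set to its lowest listed pileup, the ratio was 0.497 to 0.746 for the 5 genes and 1.04 to 2.24 for the 9, and the interval included 1 in all 14. At this assumed value, presence in a single list was not a difference beyond counting error. The fragments in the other library may be fewer than assumed. The ratio would then lie further from 1, and its interval could leave out 1. These intervals therefore cannot decide whether the libraries differ at these promoters. When the MIZ-1DPOZ list was shortened to the length of the MIZ-1WT list, 11 genes were listed for MIZ-1WT only and 4 for MIZ-1DPOZ only. Shortening removes MIZ-1DPOZ peaks by construction. Without the matching shares of all protein-coding genes, this change cannot be read as particular to SNARE genes.

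The strongest promoter summits of SNARE genes gathered close to the starts. In the MIZ-1WT library 15 of 18 lay within 300 bp of an annotated start and 11 lay after it. Of the 22 MIZ-1DPOZ summits, 18 lay within 300 bp and 19 after it. By annotation, 6 MIZ-1WT summits were in a 5′ UTR, 2 in a coding exon, 4 in an intron and 6 before the transcript. In the MIZ-1DPOZ library the numbers were 7, 1, 11 and 3. Sequence around the summits was rich in GC, from 64.7% to 81.6% in the MIZ-1WT and from 63.7% to 77.1% in the MIZ-1DPOZ library over 201 bp. All 40 of these summits were in single-copy sequence.

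**Figure D4:**
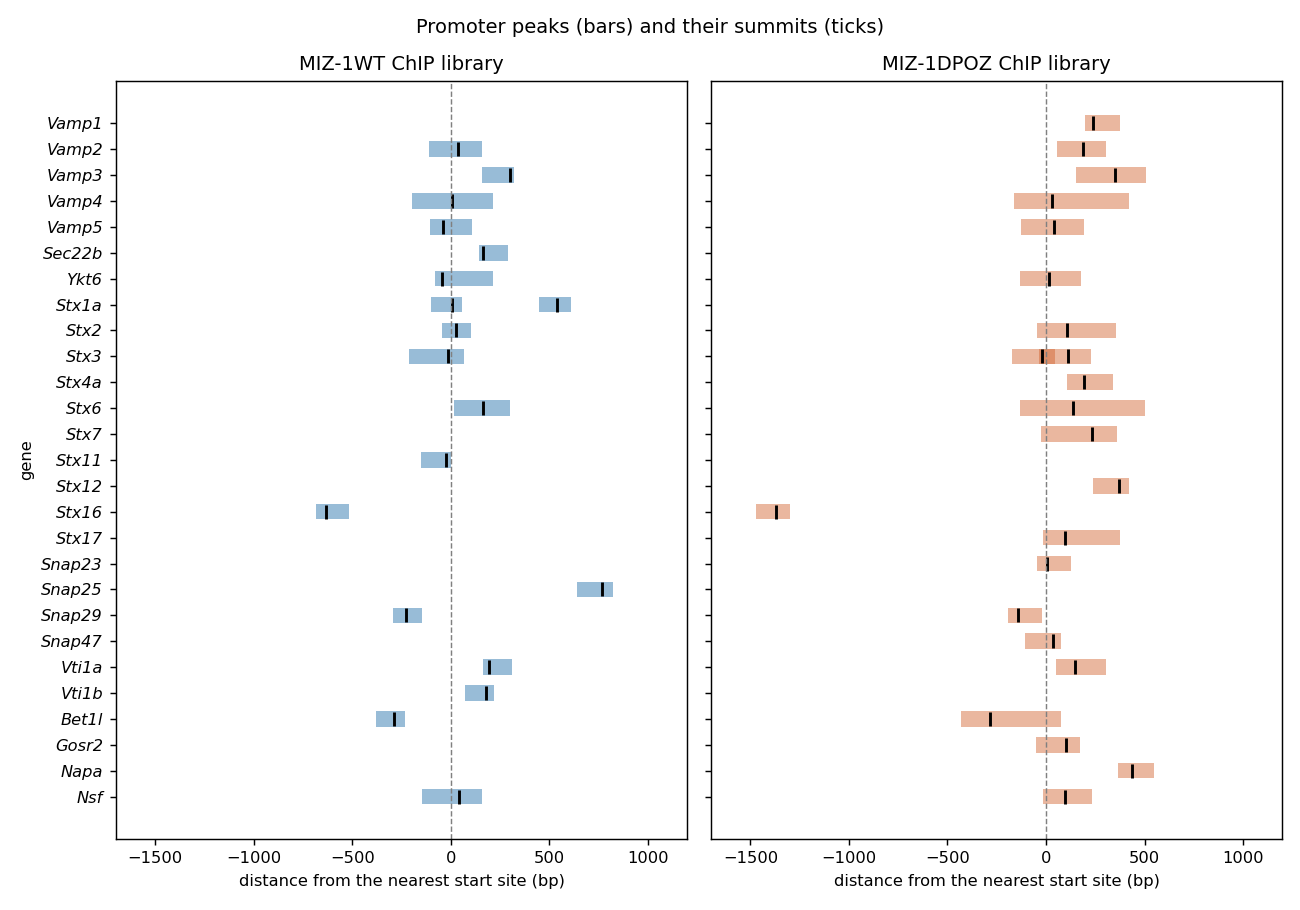
Promoter peaks (bars) and summits (ticks) of the 27 SNARE genes with a promoter peak, by distance in bp from the annotated start nearest to the summit, in the MIZ-1WT (left) and MIZ-1DPOZ (right) libraries. Most summits lie within 300 bp of a start. The Stx16 summits lie at -633 and -1369 bp, and overlapping bars of Stx3 are measured from different starts.

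Gene bodies were examined for peaks outside the promoter windows. In the MIZ-1WT library 9 of the 33 genes had such a peak (27.3%, against 24.2% of protein-coding genes), with 17 peaks in all. In the MIZ-1DPOZ library 16 genes had one (48.5%, against 42.8%), with 40 peaks. With lists of equal length, 8 genes had a MIZ-1DPOZ gene-body peak, fewer than the 9 for MIZ-1WT. No share of all protein-coding genes is given for this cut. Per 100 kb of gene, the full lists gave 1.09 and 2.57 peaks, against 0.965 and 2.48 over all protein-coding genes. Gene-body peaks were low, with a median of 8 fragments in the MIZ-1WT and 11 in the MIZ-1DPOZ library, and 5 in each list overlapped a peak of the other. Of the summits, 11 of 17 and 17 of 40 lay in sequence over 50% repeat-masked, and 15 and 33 were in introns.

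Stx8, at 241 kb among the longest of the genes, had the most gene-body peaks, with 3 in the MIZ-1WT and 6 in the MIZ-1DPOZ list and none in its promoter. The highest of them, at 23 MIZ-1DPOZ fragments, was in sequence with 966 copies in the genome. Stx18 had 3 and 5 peaks, all but 1 of them over multi-copy repeats. Nsf had 0 and 5 peaks, Stx1a 2 and 3, Stx3 3 and 2, and Vti1a 2 and 3. Vamp4 had 1 MIZ-1WT gene-body peak of 6 fragments and no MIZ-1DPOZ peak.

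The highest gene-body peak of the set was in Stx7, at chr10:24189156-24189438 in its 3′ UTR, with 31 MIZ-1DPOZ fragments and a fold of 13.0. It was named after its value was seen. Its summit was in single-copy sequence that is 100% repeat-masked, and the MIZ-1WT list had no peak there.

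**Figure D5:**
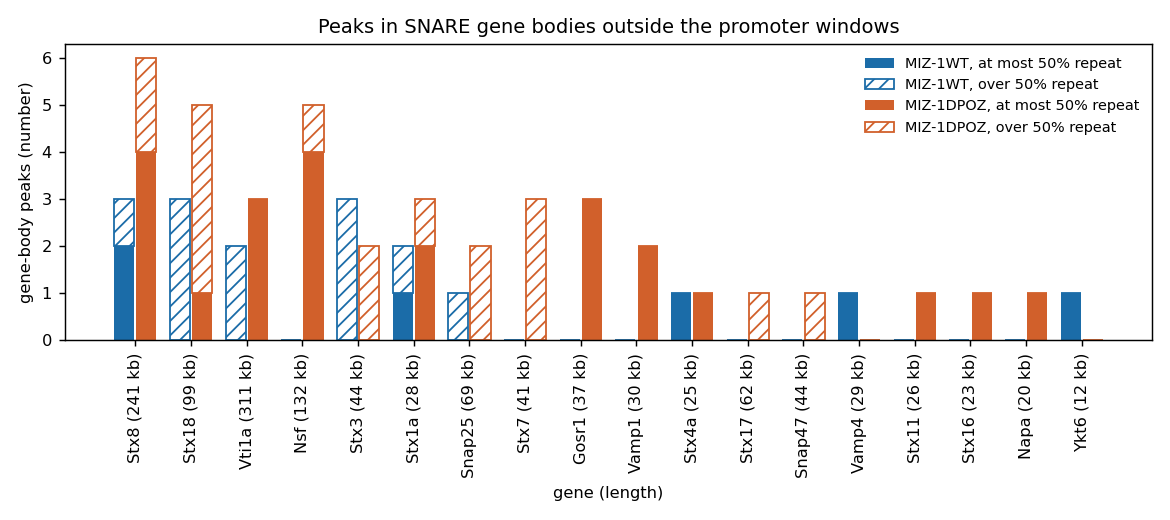
Number of gene-body peaks of each SNARE gene that had any, in the MIZ-1WT (blue) and MIZ-1DPOZ (orange) lists, with hatching for summits in sequence over 50% repeat-masked. Genes are ordered by their number of peaks and labelled with their length. Stx8 has 3 and 6 peaks and Stx18 has 3 and 5.

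Other genes of the pathway were counted from a list of further SNARE, disassembly, tethering and priming genes, of which 35 of 36 matched the annotation. A promoter peak was listed for 10 of the 35 in the MIZ-1WT library (28.6%) and for 15 in the MIZ-1DPOZ library (42.9%), close to the 30.9% and 48.7% of protein-coding genes, with 9 in both lists. Of 12 syntaxin-binding and priming genes, 6 had a MIZ-1WT and 8 a MIZ-1DPOZ peak. Of the 7 HOPS and CORVET tethers, which dock endosomes and lysosomes, 1 and 2 had one, with Tgfbrap1 (11 and 18 fragments) in both lists. No gene of these lists reached the 89 fragments of the lower Vamp4 peak.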

How the data were processed

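MIZ-1 ChIP-seq of B220+ splenocytes was taken as 2 deposited peak lists, 1 for each genotype. According to the study's methods, the authors used Trimmomatic on the reads, bwa for alignment to mm10 and MACS2 for peak calling, while the submitters' processing notes name Bowtie2 2.2.6 and MACS2 2.1.0. For each peak the authors deposited the fold enrichment, a ratio over local background, and the −log10 values of the caller's p-value and q-value. Treatment of duplicate and multi-mapping reads is not given in the sources used here. The deposited fold is the ratio (fragments + 1)/(background + 1), from which fragments and background were solved with the p-value. This gave whole numbers of fragments for 100% of peaks in each list. The solution was first tested on data with known answers.

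Starts and genes came from GENCODE basic release 21 for GRCm38, the mm10 assembly, and overlaps of at least 1 bp counted. Depth was compared through the most frequent background value (0.86 and 1.348 fragments) divided by the smallest peak width (148 and 173 bp). Ratios carry 95% Clopper-Pearson and shares 95% Wilson intervals. The Clopper-Pearson intervals cover counting error only, also where a lowest listed pileup was assumed. The Wilson intervals treat the genes of a group as random draws and do not measure counting error of fragments. Copies in the genome are the median of 5 sequences of 50 bases at a summit. The members, their roles, the other genes of the pathway and the alternatives were chosen with earlier results of these data known. The input libraries and the reads were not analysed here. Values of some other genes of the pathway are not reported here. Values are given for Vamp4, the 10 members with the largest −log10 q in the MIZ-1WT list (with ties), all members of the MIZ-1WT list only, the 5 strongest of the MIZ-1DPOZ list only and the 5 with most gene-body peaks (with ties), and other members were named after their values were seen. Scripts ran under Python 3.11.15 (scipy 1.17.1, pandas 2.3.3, numpy 2.4.6).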

Additional observations from a re-analysis of the deposited data

How the results depend on the processing

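With 1 library per genotype, variation between mice cannot be given and depth limits most promoters to 6 to 16 fragments. The Vamp4 ratio stayed under 1, at 0.389 when scaled by the background and 0.381 when corrected for the ceiling, an alternative chosen after seeing the data, and the median ratio of the members ranged from 0.851 to 1.06. Of the counts, those that moved by over 1.5 times did so as follows. At a −log10 q of at least 5, promoter peaks were left at 4 genes for MIZ-1WT, 14 for MIZ-1DPOZ, 3 in both lists and 1 in the MIZ-1WT list only, with 2 v-SNAREs, 1 syntaxin and 0 SNAP genes for MIZ-1WT, 0 SNAP genes for MIZ-1DPOZ, and 3 genes with a MIZ-1WT gene-body peak. At a fold of at least 5 they were left at 9 genes for MIZ-1WT, 14 for MIZ-1DPOZ and 5 in both, with 3 syntaxins and 1 SNAP gene for MIZ-1WT, 0 SNAP genes for MIZ-1DPOZ, and 5 genes with a MIZ-1WT gene-body peak. These limits and the shortened list leave fewer peaks by construction. Matching shares of all protein-coding genes are given above only for the promoter peaks of each list at the −log10 q limit. With lists of equal length, 11 genes had a MIZ-1DPOZ promoter peak, 7 were in both lists, 11 were listed for MIZ-1WT only and 4 for MIZ-1DPOZ only, with 5 syntaxins and 0 SNAP genes for MIZ-1DPOZ and 8 genes with a MIZ-1DPOZ gene-body peak. A window of 500 bp or the nearest start left 1 SNAP gene for MIZ-1WT. Every other count stayed within 1.5 times its value, and every interval kept its side of 1, under the alternatives run.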
